A study of Salix viminalis with 12 samples.

Results

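The monolignol biosynthesis enzymes of *Salix viminalis* roots were examined in the annotation of the root transcriptome. Monolignols are the alcohols that polymerise into lignin. A set of 10 Arabidopsis genes, 1 per step from phenylalanine ammonia-lyase to cinnamyl alcohol dehydrogenase, was looked up by code. Counts given for the pathway refer to these 10 genes, without their isozymes. A contig, which is a coding sequence predicted on an assembled transcript, was taken as a member when its Arabidopsis gene model, without the suffix, was 1 of these 10 codes. Members were 68 contigs of the 64173 that carry a code and of 86843 in all, that is 0.106% of the contigs with a code. They belonged to 9 of the 10 genes, whereas 13764 Arabidopsis genes had at least 1 contig in the whole assembly.

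All plants were cuttings of a single *S. viminalis* individual, so that 1 genotype underlies the assembly. Roots came from 12 libraries, 3 per group. The groups CT and CC grew in control soil, CT under temperate conditions and CC cold-acclimated. The groups MT and MC grew in metal-polluted soil, MT temperate and MC cold-acclimated. Temperate plants stayed at 23 °C by day and 20 °C by night, and cold-acclimated plants at 7 °C and 5 °C, although the sample labels give 22 °C and 4 °C. The polluted soil of MT and MC was spiked with Cd (1.5 ppm), Cu (175 ppm), Ni (30 ppm) and Zn (500 ppm), and 40 days after transfer to these pots the cold began and lasted 4 weeks. The reads of the 12 libraries were assembled together, and the 5 columns of the table analysed here hold names and text, with 0 columns of values per library. The depth of each library and the level of each contig are therefore unknown from it, and CT, CC, MT and MC were not compared. The numbers below are counts of contigs in 1 assembly, without replicates, and no test was run on them. A count of contigs is not a transcript level: isoforms, gene copies, allelic forms, fragments and repeated assembly each add contigs.

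Lignin is laid down in the walls of xylem vessels and fibres and, in roots, also in the Casparian strip of the endodermis. Its building blocks are made in the cytosol from phenylalanine, which is deaminated, hydroxylated on the ring, activated as a CoA ester, methylated and finally reduced to an alcohol. The degree of ring methoxylation distinguishes the H, G and S units of lignin. The same pathway also feeds flavonoids, coumarins and lignans, which leave it at different points.

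The first pathway step, phenylalanine ammonia-lyase (PAL), which removes ammonia from phenylalanine to give cinnamic acid, had 8 contigs, all on AT2G37040 (PAL1). CLC gave 4 of them and each Trinity assembly 2. Its 4 Trinity contigs lay in 4 Trinity genes, Trinity's own grouping of transcripts into loci, and in 4 Trinity clusters, taken here as names that share a DN number within an assembly. Trinity genes and clusters were counted in each of the 2 Trinity assemblies and summed without matching. A locus found in both assemblies therefore counts in each, and these numbers are not numbers of willow loci. No pair of PAL contigs was thus named as isoforms of the same Trinity gene. The 3 other Arabidopsis PAL genes, PAL2 (AT3G53260), PAL3 (AT5G04230) and PAL4 (AT3G10340), had 0 contigs each.

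Cinnamate 4-hydroxylase (C4H, AT2G30490), the cytochrome P450 that makes 4-coumaric acid, had 12 contigs. They comprised 4 from CLC, 5 from the first Trinity assembly and 3 from the second. The 8 Trinity contigs lay in 6 Trinity genes of 5 clusters, and 4 of them shared a Trinity gene with another C4H contig. C4H thus combined isoforms of a Trinity gene with separate Trinity genes.

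The step that follows, 4-coumarate CoA ligase (4CL), activates the acid as its CoA ester. AT1G51680 (4CL1) was the only gene of the 10 with 0 contigs. The step was represented by contigs of its isozymes, with 8 contigs on 4CL2 (AT3G21240) and 2 on 4CL3 (AT1G65060), and 0 on 4CL5 (AT3G21230). The 8 contigs of 4CL2 came from CLC (1), the first (5) and the second Trinity assembly (2), and its Trinity contigs lay in 5 clusters. In Arabidopsis, 4CL1 and 4CL2 are linked to lignin and 4CL3 to flavonoids. The codes describe the closest annotated match of each contig, so that they do not show which willow ligase serves lignin.

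Hydroxycinnamoyl-CoA shikimate/quinate hydroxycinnamoyl transferase (HCT, AT5G48930), which moves the coumaroyl group to shikimate for the next hydroxylation, had 12 contigs. In contrast to C4H with the same number, 8 of the 12 came from CLC and 2 from each Trinity assembly. Its 4 Trinity contigs lay in 4 Trinity genes of 4 clusters. The coumaroyl ester 3-hydroxylase (C3H, AT2G40890, CYP98A3), the P450 that acts on this shikimate ester, had 4 contigs, 1 from CLC, 3 from the first Trinity assembly and 0 from the second. Among its 3 Trinity contigs, 2 shared a Trinity gene. Its Arabidopsis paralogues CYP98A8 (AT1G74540) and CYP98A9 (AT1G74550) had 0 contigs each.

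**Figure D1:**
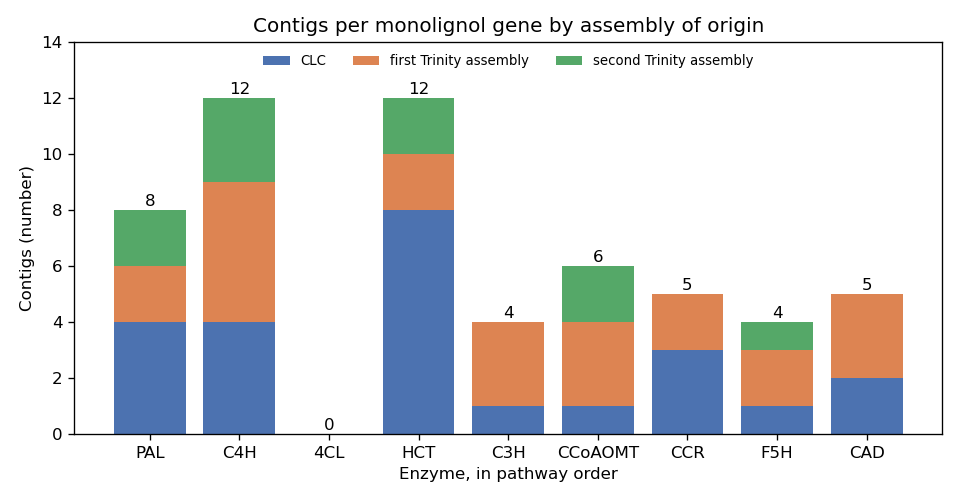
Number of contigs (vertical axis) on monolignol genes in pathway order (horizontal axis), stacked by the assembly assigned from the contig name (CLC, first or second Trinity assembly), with the total above each bar. C4H and HCT reach 12 contigs, 4CL1 has 0, and CLC supplies 8 of the 12 contigs of HCT.

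Caffeoyl-CoA O-methyltransferase (CCoAOMT, AT4G34050), which adds the methyl group that leads to G units, had 6 contigs, 1 from CLC, 3 from the first and 2 from the second Trinity assembly. Of its 5 Trinity contigs, 4 shared a Trinity gene, the largest share among the 9 genes. A further 2 contigs carried the code AT1G67980 (CCOAMT), whereas TSM1 (AT1G67990), AT1G24735 and CCoAOMT7 (AT4G26220) had 0 contigs each. Cinnamoyl-CoA reductase (CCR, AT1G15950), which turns the CoA esters into aldehydes and is the first step committed to monolignols, had 5 contigs. CLC gave 3 of these and the first Trinity assembly 2, in 2 Trinity genes. Its isozyme CCR2 (AT1G80820) had 0 contigs.

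Ferulate 5-hydroxylase (F5H, AT4G36220, CYP84A1), the P450 that opens the route to S units, had 4 contigs, of which 1 came from CLC, 2 from the first and 1 from the second Trinity assembly. Its paralogue CYP84A4 (AT5G04330) had 0 contigs. Cinnamyl alcohol dehydrogenase (CAD, AT3G19450, CAD4), which reduces the aldehydes to the alcohols, had 5 contigs, 2 from CLC, 3 from the first Trinity assembly and 0 from the second.

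CAD was the step at which the listed family was broadest, and the one for which the most isozymes, 8, had been listed. The 36 contigs of this family lay on 6 genes, of which CAD4 had 5. There were 9 contigs each on CAD7 (AT4G37980) and CAD9 (AT4G39330), 8 on CAD1 (AT1G72680), 4 on CAD8 (AT4G37990) and 1 on CAD6 (AT4G37970). These relatives of CAD4 were listed as members of the family, and their contigs do not show activity at this step. CAD7 and CAD8 are described as elicitor-activated genes. CAD5 (AT4G34230), which acts together with CAD4 in the lignification of Arabidopsis stems, had 0 contigs, as had CAD2 (AT2G21730) and CAD3 (AT2G21890). CAD4 thus carried 13.9% of the contigs of the CAD family. PAL1, CYP98A3, CCR1 and F5H carried 100% of the contigs of families for which isozymes had been listed. For C4H and HCT no isozyme was listed, so that their share is 100% by construction. A code is the closest annotated match of a contig, so that 0 contigs on an isozyme does not show that willow lacks it. Over the 10 families, 68 of 111 contigs (61.3%) lay on the 10 genes. This share was 84.0% (63 of 75) without the CAD family, a setting added once the counts were known. Families without a listed isozyme, C4H and HCT among them, enter both shares with all their contigs. Both shares therefore depend on which isozymes were listed. Relatives of HCT were counted by their description, after their values were seen. The 24 genes described as HXXXD-type acyltransferases, the superfamily of HCT, had 87 contigs, with 17 on AT3G26040. HCT is described by its own name and was not among these 24, nor was any relative with another description.

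**Figure D2:**
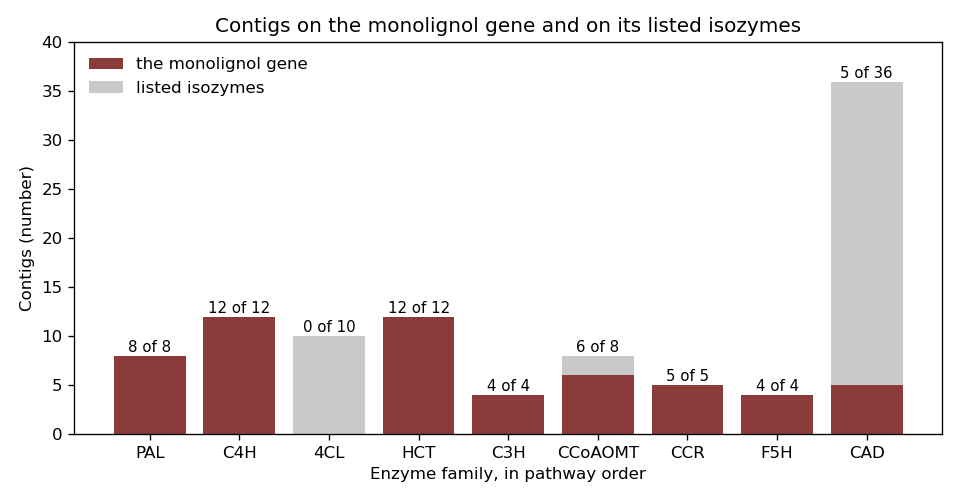
Number of contigs (vertical axis) on the monolignol gene (dark) and on its listed isozymes (grey) for enzyme families in pathway order (horizontal axis), with the monolignol gene's contigs of the family's contigs above each bar. The 4CL family has 0 of its 10 contigs on 4CL1, CAD has 5 of 36 on CAD4, and no isozymes were listed for C4H and HCT.

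The 9 genes with contigs had between 4 and 12 contigs each, with a median of 6, against a median of 3 over all genes with a contig. With 4CL1 counted as 0, the median was 5.5. All 9 had more than 1 contig, which 77.7% of all matched genes had. Their lowest count, 4 contigs, was reached or passed by 41.5% of the matched genes. C4H and HCT reached 12 contigs, a number reached or passed by 5.8% of the matched genes. At the lower end, C3H and F5H with 4 contigs and CCR and CAD with 5 were closer to the assembly median. C3H and F5H had more contigs than 58.5% of the matched genes, CCR and CAD more than 69.5%, CCoAOMT more than 76.7% and PAL more than 86.3%. The order of the steps by contigs was therefore C4H with HCT, then PAL, CCoAOMT, CCR with CAD, and C3H with F5H. Neighbours in this order differ by 0 to 4 contigs, and without replicates no spread can be given for them. Of the 3 P450 enzymes, C4H had 12 contigs and C3H and F5H 4 each, that is 20 (4.51%) of the 443 contigs on 85 matched P450 genes, whose median was 3.

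**Figure D3:**
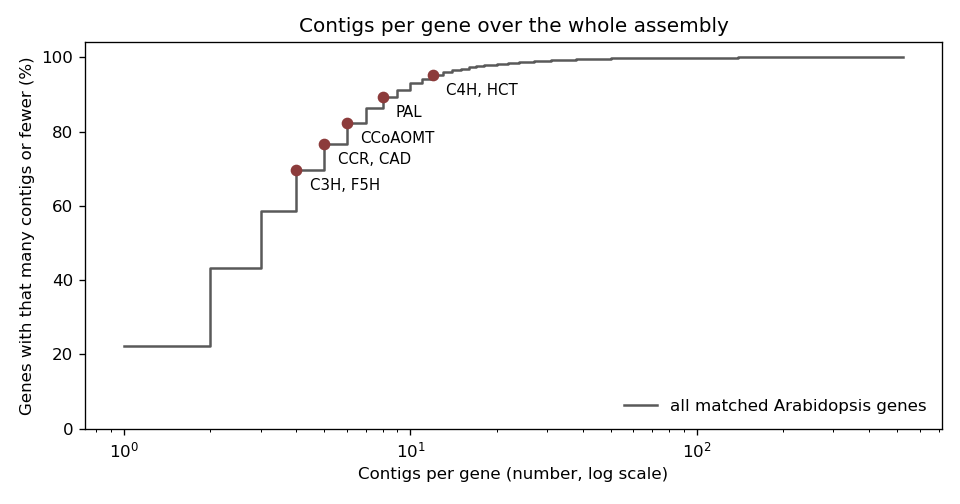
Share of the matched Arabidopsis genes (vertical axis, %) with at most the number of contigs on the horizontal axis (log scale), with matched monolignol genes marked. The markers run from 4 contigs for C3H and F5H to 12 for C4H and HCT, while the line extends to 525 contigs.

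Contigs of all 3 assemblies were found for 6 of the 9 genes, among them PAL, C4H, HCT, CCoAOMT and F5H. C3H, CCR and CAD had contigs of CLC and the first Trinity assembly, and 0 of the second. All 3 assemblies were found for 25.9% of all matched genes. Of the 5041 matched genes with 4 to 12 contigs, the range of the 9 genes, 52% had contigs of all 3. The share of CLC contigs was higher in the pathway than in the assembly, with 28 of 68 (41.2%) against 25.8% of all contigs with a code and 22.7% of the contigs of genes with 4 to 12 contigs. Shares of the first and second Trinity assembly were 41.2% and 17.6%, against 52.9% and 21.4% of all contigs with a code. By gene, the CLC share ran from 16.7% in CCoAOMT over 25.0% in C3H and F5H, 33.3% in C4H, 40.0% in CAD, 50.0% in PAL and 60.0% in CCR to 66.7% in HCT. In 8 of the 9 genes it was above 22.2%, the median of genes with 4 to 12 contigs. C3H and F5H passed this median with 1 CLC contig each. HCT was singled out after its value was seen. A share as high as its own was found in 2.52% of the genes with 4 to 12 contigs. Without HCT, the share in the pathway was 35.7% (20 of 56). Contigs carry the name that was left after similar sequences had been collapsed, so that the share describes names and not what an assembly recovered.

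The 40 Trinity contigs of the pathway lay in 31 Trinity genes of 29 clusters, summed over both Trinity assemblies without matching. Of the 40, 17 (42.5%) shared their Trinity gene with another contig of the same enzyme, against 49.0% of all Trinity contigs with a code and 57.3% of those on genes with 4 to 12 contigs. None of the contigs of PAL, HCT and CCR did so. Isoforms of the same Trinity gene were thus named for C4H, C3H, CCoAOMT, F5H and CAD, among others. The 29 clusters held 0 cases in which 2 of the enzymes fell together. Another Arabidopsis gene was found in 6 of the 29, while 12.6% of all clusters with a coded contig held more than 1 gene. A cluster of C3H also held contigs of AT5G47820 and AT5G05110, that of CCoAOMT those of AT1G07570, that of CCR a contig of AT5G60600 and that of CAD those of AT1G71800. These neighbours, described as a kinase, a cystatin, a cleavage stimulating factor and the like, lay in other Trinity genes in each case, and 0 of the 31 Trinity genes held a second Arabidopsis gene.

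The 68 contigs lay on 67 parent transcripts. On 1 transcript, 2 coding sequences carried the same Arabidopsis gene. Over the assembly, 766 transcripts had more than 1 coded contig, and in 72.1% of these all contigs had the same Arabidopsis gene. The coding sequence number at the end of the name was above 1 for 10 of the 68 contigs (14.7%), against 11.8% of all contigs with a code. Among these were 3 contigs of C4H, 2 of CAD, and 1 each of HCT, C3H and CCoAOMT. In 9 of the 10, it was the only coding sequence listed for its transcript. All 68 contigs were matched to gene model 1 of their gene, as were 86.8% of the contigs with a code.

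Genes around the pathway were counted from lists of Arabidopsis codes. Of the 19 genes that supply phenylalanine through shikimate, 15 were matched, with 73 contigs and a median of 4. MEE32 (AT3G06350), the bifunctional dehydratase and dehydrogenase that makes shikimate, had the most, with 15 contigs, and prephenate aminotransferase (AT2G22250) had 10. The 4 unmatched genes were shikimate kinase SK2 (AT4G39540) and the arogenate dehydratases ADT3 (AT2G27820), ADT4 (AT3G44720) and ADT5 (AT5G22630). Arogenate dehydratase, the last step to phenylalanine, was represented by ADT1 and ADT2 with 4 contigs each and by ADT6 with 2. CLC contigs made up 16.4% of this list. This share varied widely between the lists, from 3.85% in the partner enzymes to 50.0% in the regulators. It was above the 41.2% of the monolignol genes in the regulators, the root tissue genes (45.5%) and the branches out of the pathway (44.4%), and below it in phenylalanine supply, the isozymes (30.2%), the partner enzymes and the laccases (26.9%).

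All 4 partner enzymes were matched. The P450 reductases ATR1 (AT4G24520) and ATR2 (AT4G30210), which pass electrons to C4H, C3H and F5H, had 7 contigs each. This was more than C3H or F5H with 4 each, and fewer than C4H with 12. The hydroxycinnamaldehyde dehydrogenase REF1 (AT3G24503), which draws aldehydes off towards ferulic and sinapic acid, had 10 contigs. The caffeoyl shikimate esterase CSE (AT1G52760), an alternative exit from the shikimate ester, had 2 contigs and is described in the table as lysophospholipase 2. Of these 26 contigs 1 (3.85%) came from CLC.

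Laccases, which oxidise monolignols in the wall, were matched for 12 of 17 genes, with 78 contigs and a median of 5. LAC17 (AT5G60020) had 15 contigs, LAC14 (AT5G09360) 14 and LAC4 (AT2G38080) 10. LAC4 and LAC17 are main lignin laccases of Arabidopsis stems. The unmatched genes were LAC8 (AT5G01040), LAC9 (AT5G01050), LAC10 (AT5G01190), LAC13 (AT5G07130) and LAC16 (AT5G58910).

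Regulators had a median of 2.5 contigs over the 12 of 15 that were matched, against 6 for the monolignol genes. MYB4 (AT4G38620), a repressor of phenylpropanoid genes, had the most with 12 contigs, of which 8 came from CLC, 3 from the first and 1 from the second Trinity assembly. CLC gave 24 of the 48 contigs of this list (50.0%). The secondary wall switches MYB46 and MYB83 had 2 contigs and 1 contig, and the lignin activators MYB63 and MYB85 had 5 and 3. The NAC regulators NST1, VND6 and VND7 had 6, 7 and 2 contigs. MYB58, SND1 and NST2 had 0 each. All 4 kelch F-box genes, whose proteins mark PAL for degradation in Arabidopsis, were matched, with 5 contigs on AT1G15670, 2 each on AT2G44130 and AT3G59940 and 1 on AT1G80440.

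At the branches out of the pathway, 6 of 8 genes were matched, with 27 contigs. PCBER1 (AT4G39230), a phenylcoumaran benzylic ether reductase of the lignan branch, had 8 contigs and the dirigent gene AT1G64160 had 6. Chalcone synthase (AT5G13930), the entry to flavonoids, had 7 contigs and chalcone isomerase (AT3G55120) 1. F6'H1 (AT3G13610), the entry to coumarins, had 3 contigs. The monolignol glucosyltransferase UGT72E1 (AT3G50740) had 2 contigs, while UGT72E2 (AT5G66690) and UGT72E3 (AT5G26310) had 0. Among 6 genes typical of Arabidopsis roots, 4 were matched: SHR with 6 contigs, SCR with 3, and the Casparian strip gene CASP1 and the root hair expansin EXPA7 with 1 each. RHD6 (AT1G66470) and PHT1;1 (AT5G43350) had 0. A contig shows that a sequence was assembled, so that the tissue was not checked against levels.

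**Figure D4:**
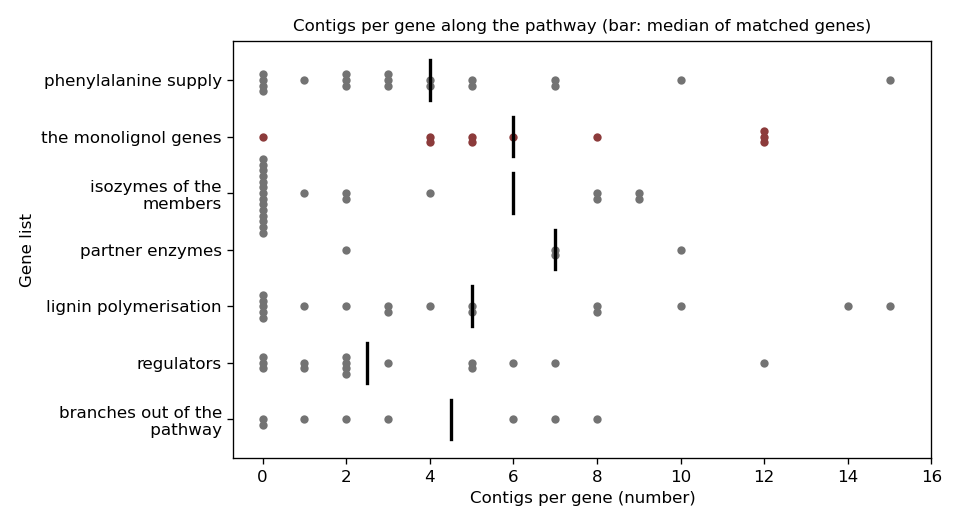
Contigs per gene (horizontal axis, number) for the monolignol genes and the 6 lists of genes around the pathway (vertical axis), where each point is an Arabidopsis gene, genes without a contig lie at 0, and the bar is the median of the matched genes. The medians are 4 for phenylalanine supply, 6 for the monolignol genes and their isozymes, 7 for partner enzymes, 5 for laccases, 2.5 for regulators and 4.5 for the branches.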

How the data were processed

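The 12 root libraries were prepared with a stranded kit and sequenced as paired-end reads. The authors trimmed the reads, assembled them with CLC Genomics Workbench and Trinity, merged both, called coding sequences with TransDecoder, collapsed similar sequences with cd-hit-est and matched them by BLAST to the *S. purpurea* transcriptome. The authors deposited an annotation table of 5 text columns, which holds no measured unit. Their tests of differential expression used edgeR (v. 3.28.1, from the submitters' processing notes) on values not used here, and depth and its precision are not given by the table.

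Contigs, parent transcripts, Trinity genes and Trinity clusters were counted per Arabidopsis gene in Python (v. 3.11.15), with SciPy (v. 1.17.1) for Wilson intervals (95%) and matplotlib (v. 3.10.9). Every contig whose name was not of the Trinity form was assigned to CLC. The version given in a Trinity name was taken as the first or second Trinity assembly. By rule, the named genes are the 10 members and 91 genes in 7 lists, with values for matched isozymes and partners, the genes with the most contigs and unmatched enzymes. Values of further listed genes, AT3G26040, the 5 genes named as cluster neighbours, counts by description and single features were added after the values were seen. Members and lists were chosen with earlier results of these data known. The counting was tested on a simulated table of 2000 genes, of which 0 were counted wrongly. Each kind of unit, each assembly and the description were varied. Sequences were not analysed here, and 1 member enters the totals but is not reported singly.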

Additional observations from a re-analysis of the deposited data

How the results depend on the processing

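No paired analysis was possible because names and text are all that the 5 columns contain, and leaving out a replicate could not be run for the same reason. Counts were taken as the same within 1.5-fold and shares within the Wilson interval of the reported share. Both limits were tolerances and not measures of spread, since the contigs are not independent draws. By this measure, 16 of the 30 alternatives counted as the same. Among these, the settings that required a description left the counts unchanged by construction, since all 68 contigs carry one. Parent transcripts in place of contigs changed the 68 only to 67. All others follow here.

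The 68 contigs on the 10 genes became 31 Trinity genes, 29 Trinity clusters, 28 contigs of the first and 12 of the second Trinity assembly, and 28 CLC contigs, since fewer units are counted by construction. The median of 6 contigs per gene became 3 for Trinity genes, for Trinity clusters, for the first Trinity assembly and for CLC, and 2 for the second Trinity assembly. The 9 genes with more than 1 contig became 5 in the second Trinity assembly, where 6 genes had a contig. With CLC alone they became 6, which still counted as the same. Over all matched genes the corresponding medians were 2 for Trinity genes, for Trinity clusters and for the first Trinity assembly, and 1 for the second and for CLC. The pathway thus kept a median above that of all matched genes in each of these settings. The share of family contigs on the 10 genes was 61.3%, and 84.0% without the CAD family, the setting added after the data were seen. Both values depend on which isozymes were listed. The share of Trinity contigs that share a Trinity gene was 42.5%, and 16.7% (2 of 12) in the second assembly. The single transcript with a second coding sequence became 0 when another Arabidopsis gene was required. The count of all 3 assemblies, 6 genes, was the same with a description required. Counts depend on how far the authors collapsed similar sequences.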
